A study of Mus musculus with 11 samples.

Results

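Oligodendrocytes are the glial cells that wrap axons of the brain in myelin, and their precursors persist in the adult cortex and can form new myelin after injury. The genes described here mark that lineage from the precursor to the myelinating cell, and 32 of them were taken by name from the table of 22377 genes. All 32 were present, each with 1 row, and all had a mean of at least 0.5 CPM over the 11 libraries, the limit of the rule, as did 17556 genes of the table. CPM give a gene's tags as a share of its library, on 1 scale for all libraries. The rule itself used gene names and mean level and no comparison between groups. The names were, however, chosen with earlier results of these data known, so the counts below do not come from a blind choice.

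The series follows the cerebral cortex of male C57BL/6N mice after photothrombosis, a focal stroke made by lighting the left parietal lobe through a photosensitive dye, rose bengal. One library comes from naive cortex. A further 10 cover both sides of the cortex, infarcted and non-infarcted, in 5 states: 7 d and 1 m after the stroke, each without and with levetiracetam (LEV, an anti-seizure drug), and 2 m with LEV withdrawn for 2 weeks. Each group is 1 library, no transgene or genotype is named, and the labels give neither the number of mice behind a library nor whether the sides share a mouse. Mice of 8 to 10 and of 65 to 85 weeks are named in the study's design text without assignment to libraries. RNA came from whole cortex and was read by CAGE (cap analysis of gene expression), which counts 5′ ends of capped transcripts, so a value does not depend on transcript length. Library totals ran from 12928291 to 21000367 tags, and 3 tags equal 0.143 to 0.232 CPM. With 1 library per group, p-values measure only the spread among these libraries.

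The lineage proceeds in known steps. Precursors carry the growth factor receptor Pdgfra and the proteoglycan Cspg4, and divide in the adult brain. On leaving the cell cycle they pass through a stage marked by Gpr17, Bcas1 and Enpp6. Transcription factors of the Olig, Sox and Nkx families and then Myrf switch on the genes of the myelin membrane, its galactolipids and the enzymes of the mature cell. Mean levels over the 11 libraries ran from 4.30 CPM for Klk6 to 1962 CPM for Mbp. None of the 32 had a gene within 5 kb (mean of at least 20 tags) whose tags matched its own within 5% in all 11 libraries. Partial sharing of tags was not tested.

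The lineage was slightly higher on the infarcted side, led by Klk6, Tcf7l2, Cldn11 and Trf. A gene was called at an adjusted p below 0.05 (limma on log2(CPM + 1), Benjamini-Hochberg over all genes tested, with the 5 states as repeats of the side contrast). Of the 32 genes, 18 were called higher and 0 called lower on that side, where 6.21% of all 16229 genes tested were called higher and 0.789% lower. All 32 differences were above 0, with a median of 0.37 (log2) against 0.01 for all genes. Klk6 alone reached 2-fold. In 24 of the 32 the infarcted side was higher in all 5 states, as in 14.8% of all genes tested. The 8 exceptions were Mal, Sox10, Nkx2-2, Pdgfra, Fa2h, Gal3st1, Car2 and Plekhb1. In bulk cortex, more oligodendrocytes and more RNA per oligodendrocyte cannot be told apart. CPM are shares of a library, so less RNA from other cells cannot be told apart from these either.

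The count of 18 rests on all 5 states together. It was 5 without the 7 d pair, 3 without the 7 d LEV pair, 3 without the 1 m pair, 13 without the 1 m LEV pair and 15 without the 2 m pair. Over all genes tested, the calls numbered 103, 161, 71, 1174 and 1288 in that order, against 1136 of 16229 with all 5 states. Klk6, Cldn11 and Trf were called in each of these 5 fits, and the other 15 lost the call in at least 1. The median of the 32 stayed between 0.34 and 0.39.

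**Figure D1:**
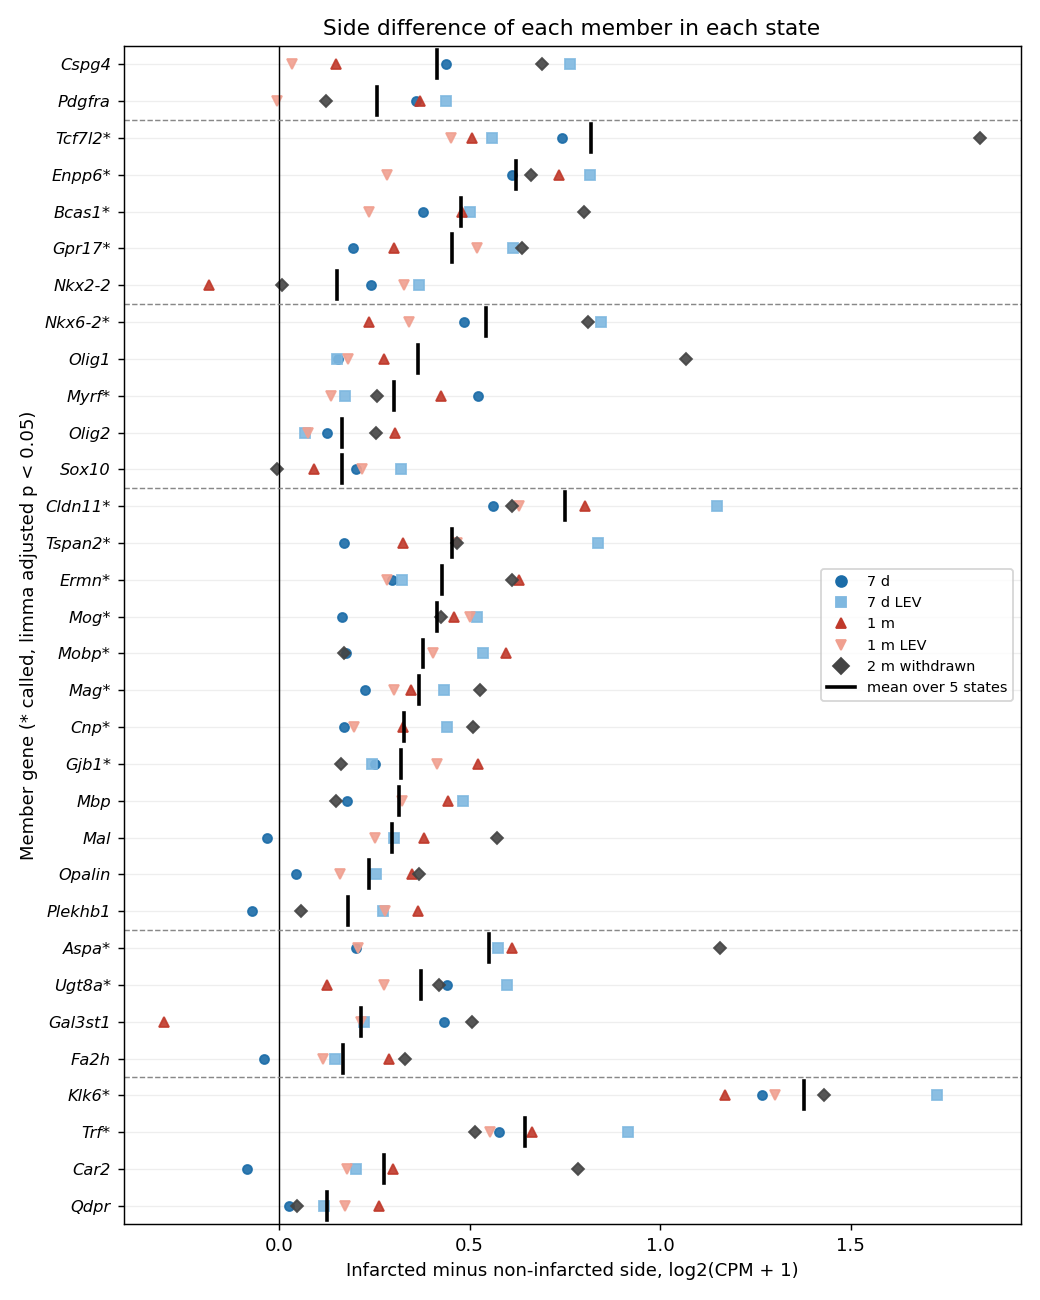
Difference between the infarcted and the non-infarcted side for each of the 32 genes, in log2(CPM + 1). Each symbol is 1 state (1 library against 1 library), the black bar is the mean over 5 states, dashed lines separate the roles, and an asterisk marks a called gene. Most symbols lie to the right of 0, and Klk6 is above 1 in all 5 states.

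The sequences around the starts of 6 genes are shown because CAGE counts tags at transcript starts. They are the 4 called genes with the largest side differences that have an entry in the table (Klk6, Tcf7l2, Cldn11 and Enpp6) and both precursor genes, Pdgfra and Cspg4. Each is 300 bases, 250 before and 50 after an annotated start, from RefSeq on GRCm38.p6, 5′ to 3′. Capitals mark matches, on either strand, to ACAAAG or AACAAT (SOX factors), to CTGGNAC (Myrf) and to CAGCTG or CATCTG (E-boxes of Olig factors).
Klk6, chr7:43824294-43824593, plus strand: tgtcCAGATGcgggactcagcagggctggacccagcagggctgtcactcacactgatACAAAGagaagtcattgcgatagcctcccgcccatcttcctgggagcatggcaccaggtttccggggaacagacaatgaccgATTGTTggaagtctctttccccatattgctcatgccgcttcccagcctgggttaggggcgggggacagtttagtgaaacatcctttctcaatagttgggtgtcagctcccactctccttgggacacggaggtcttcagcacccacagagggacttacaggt
Tcf7l2, chr19:55741560-55741859, plus strand: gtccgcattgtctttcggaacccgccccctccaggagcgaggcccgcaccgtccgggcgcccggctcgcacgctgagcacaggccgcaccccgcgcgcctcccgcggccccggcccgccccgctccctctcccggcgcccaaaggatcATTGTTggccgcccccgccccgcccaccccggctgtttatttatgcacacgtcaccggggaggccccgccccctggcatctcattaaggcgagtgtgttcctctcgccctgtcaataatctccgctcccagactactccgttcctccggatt
Cldn11, chr3:31149670-31149969, plus strand: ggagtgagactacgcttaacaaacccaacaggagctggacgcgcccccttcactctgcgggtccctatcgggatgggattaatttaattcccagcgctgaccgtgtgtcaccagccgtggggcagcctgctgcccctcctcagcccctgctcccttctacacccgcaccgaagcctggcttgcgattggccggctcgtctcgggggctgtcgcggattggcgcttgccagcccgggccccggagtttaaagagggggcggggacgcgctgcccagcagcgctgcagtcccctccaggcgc
Enpp6, chr8:46986637-46986936, plus strand: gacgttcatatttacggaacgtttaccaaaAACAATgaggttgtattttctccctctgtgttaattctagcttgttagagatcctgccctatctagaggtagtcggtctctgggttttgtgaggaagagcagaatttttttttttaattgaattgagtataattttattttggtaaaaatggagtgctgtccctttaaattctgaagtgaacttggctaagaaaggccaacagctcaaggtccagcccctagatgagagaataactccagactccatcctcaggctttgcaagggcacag
Pdgfra, chr5:75152001-75152300, plus strand: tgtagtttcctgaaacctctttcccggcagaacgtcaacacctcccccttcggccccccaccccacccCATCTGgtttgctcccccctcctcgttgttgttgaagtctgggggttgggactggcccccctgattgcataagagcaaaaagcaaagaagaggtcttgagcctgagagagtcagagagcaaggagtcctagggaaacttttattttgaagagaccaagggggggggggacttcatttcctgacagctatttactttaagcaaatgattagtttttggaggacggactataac
Cspg4, chr9:56864854-56865153, plus strand: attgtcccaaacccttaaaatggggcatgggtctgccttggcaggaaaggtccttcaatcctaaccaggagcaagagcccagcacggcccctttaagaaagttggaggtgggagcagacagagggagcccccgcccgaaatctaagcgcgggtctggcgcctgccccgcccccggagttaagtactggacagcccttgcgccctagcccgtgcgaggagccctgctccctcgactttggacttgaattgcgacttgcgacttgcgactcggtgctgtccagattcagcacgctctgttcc
The Klk6 window held 3 matches: CAGATG, which is CATCTG on the other strand, ACAAAG, and ATTGTT, which is AACAAT on the other strand. Tcf7l2 and Enpp6 each held 1 SOX match and Pdgfra held 1 E-box. The windows of Cldn11 and Cspg4 held none of these letters. Over the 34 windows of the 23 member genes that had an entry, the SOX letters were in 15 (44.1%), against 27.0% of all 32851 windows of that length. The Myrf letters were in 9 (26.5%, against 19.3%) and the E-boxes in 8 (23.5%, against 30.6%). TATAAA was in 4 (11.8%, against 13.6%). Such short matches are a description of the letters and were not tested as binding sites. Olig1, Trf, Bcas1, Fa2h, Mbp, Gpr17, Car2, Myrf and Sox10 had no entry.

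Neither precursor gene was called between the sides. Pdgfra (ENSMUSG00000029231.15, GRCm38 chr5:75152292-75198215, plus strand) encodes the platelet-derived growth factor receptor that keeps precursors dividing. In the order 7 d, 7 d LEV, 1 m, 1 m LEV and 2 m, used throughout, the infarcted libraries stood at 31.0, 31.1, 20.8, 15.5 and 30.3 CPM and the non-infarcted at 24.0, 22.7, 15.8, 15.6 and 27.7 CPM. The sides differed by 0.26 (standard error 0.08, adjusted p = 0.104), and at 1 m with LEV they were nearly the same. Cspg4, the NG2 proteoglycan, was 7.35, 8.29, 10.3, 5.78 and 7.47 CPM against 5.17, 4.47, 9.22, 5.62 and 4.25 CPM, a difference of 0.42 (standard error 0.13, adjusted p = 0.0861). Both genes are also expressed outside the lineage, Pdgfra in fibroblasts and Cspg4 in pericytes. The fibroblast list was called higher in 5 of 10 genes and the pericyte list in 3 of 9, and their part in these values was not tested.

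The step after the precursor rose on the infarcted side in 4 of its 5 genes, with a median of 0.48. Enpp6, a choline phosphodiesterase of newly formed oligodendrocytes (ENSMUSG00000038173.15, chr8:46986887-47096762, plus strand), was 8.68, 8.81, 6.10, 4.74 and 7.01 CPM against 5.34, 4.57, 3.27, 3.71 and 4.07 CPM. It was higher in every pair, by a mean of 0.62 (standard error 0.11, adjusted p = 0.0147), though its 1 m LEV value on the infarcted side lay below the 7 d value of the other. Gpr17, a receptor of committed precursors, was 7.72, 8.34, 4.88, 4.74 and 6.78 CPM against 6.62, 5.10, 3.78, 3 and 4.01 CPM and rose by 0.45 (standard error 0.10, adjusted p = 0.0355). Bcas1, a mark of cells starting to myelinate, was 97.9, 81.6, 76.8, 72.6 and 74.8 CPM against 75.1, 57.3, 54.8, 61.5 and 42.6 CPM, a rise of 0.48 (standard error 0.08, adjusted p = 0.0146). For Gpr17 and Bcas1 the ranges of the sides overlapped, although each pair had the infarcted side higher.

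Tcf7l2, a Wnt pathway factor of newly formed oligodendrocytes (ENSMUSG00000024985.20, chr19:55741820-55933654, plus strand), was 35.4, 29.9, 25.0, 26.3 and 21.03 CPM on the infarcted side and 20.8, 20.0, 17.3, 19.0 and 5.16 CPM on the other. The 5 infarcted values lay above the 5 others, and the mean difference was 0.82 (standard error 0.18, adjusted p = 0.0323). The last pair differs through its non-infarcted library, which at 5.16 CPM stands far below the other 9 libraries of the stroke groups and the naive library (20.3 CPM). Without the 2 m pair the mean difference was 0.56. Tcf7l2 is also a gene of thalamic neurons, and of 8 thalamic genes Prkcd, a protein kinase, was the 1 called, by 1.10 (adjusted p = 0.0217). The summed level of the thalamic list was 127.6 to 148.2 CPM on the infarcted side and 121.3 to 136.5 CPM on the other. Its part in the Tcf7l2 values was not tested. Nkx2-2, a homeobox factor of differentiating precursors, was the gene of this stage that was not called, at 0.15 (adjusted p = 0.449).

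Of the 7 transcription factors of the lineage, which include Nkx2-2 and Tcf7l2, 3 were called higher. Besides Tcf7l2 these were Nkx6-2, a homeobox factor of myelinating cells, at 0.54 (standard error 0.12, adjusted p = 0.0278), and Myrf, which directs myelin gene expression in the mature cell, at 0.30 (standard error 0.08, adjusted p = 0.0483). Nkx6-2 was 9.34, 8.63, 8.90, 9.01 and 8.09 CPM against 6.39, 4.36, 7.41, 6.90 and 4.19 CPM, with no overlap of the sides. Olig2, needed for the lineage to form, was 21.1, 21.8, 12.4, 11.5 and 28.3 CPM against 19.2, 20.7, 9.80, 10.8 and 23.6 CPM. It was higher in every pair but only by a mean of 0.17 (adjusted p = 0.218), and its values moved far more between states than between sides. Olig1 was not called at 0.37 (adjusted p = 0.129), with 84.4, 92.2, 66.8, 80.9 and 93.4 CPM against 75.8, 82.9, 55.1, 71.3 and 44.0 CPM. Its 2 m non-infarcted library was the lowest of the 11, and without the 2 m pair the mean difference was 0.19. Sox10, an HMG-box factor of all stages, stood at 0.17 (adjusted p = 0.182).

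Proteins of the myelin membrane and its junctions were called higher in 8 of 12 genes, with a median of 0.35. Cldn11 encodes the claudin that forms the tight junctions between myelin layers (ENSMUSG00000037625.7, chr3:31149920-31164324, plus strand). It was 74.9, 76.5, 63.3, 77.6 and 78.2 CPM on the infarcted side and 50.4, 34.0, 35.9, 49.8 and 50.9 CPM on the other, so the lowest infarcted value exceeded the highest of the other side. The mean difference was 0.75 (standard error 0.09, adjusted p = 0.00563). Cldn11 is also found in barrier cells of the meninges. The summed level of the meningeal and perivascular fibroblast list was 3709 to 5777 CPM on the infarcted side and 2743 to 4194 CPM on the other. The median side difference of that list by state was 1.65, 1.81, 0.87, 0.29 and 0.73. Its part in the Cldn11 values was not tested. Cldn11 was called in each of the 12 other settings tried.

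Mog, a protein of the outermost myelin surface, was 39.8, 38.5, 31.0, 40.6 and 47.4 CPM against 35.4, 26.6, 22.3, 28.4 and 35.0 CPM and rose by 0.41 (standard error 0.07, adjusted p = 0.0153). Mag, the adhesion molecule that faces the axon, was 69.0, 69.1, 60.9, 61.7 and 89.5 CPM against 58.9, 50.9, 47.7, 49.9 and 61.7 CPM and rose by 0.37 (standard error 0.06, adjusted p = 0.0153). In both, the 2 m infarcted library was the highest and the sides overlapped across states. The other 5 called were Tspan2, a tetraspanin, at 0.45 (adjusted p = 0.0237), Ermn, an actin-binding protein, at 0.43 (adjusted p = 0.0185), Mobp, of compact myelin, at 0.38 (adjusted p = 0.0262), Cnp, which keeps cytoplasmic channels open in the sheath, at 0.33 (adjusted p = 0.0253), and Gjb1, the connexin 32 of gap junctions, at 0.32 (adjusted p = 0.0451).

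Mbp, which compacts the myelin membranes, was not called. It was 2300.2, 2119, 2008, 1697 and 2808 CPM on the infarcted side and 2032, 1515, 1476, 1356 and 2532 CPM on the other, higher in every pair, with a difference of 0.32 (standard error 0.09, adjusted p = 0.0679) and a 95% interval of 0.11 to 0.52. The remaining 3 that were not called were Mal, a proteolipid, at 0.30 (adjusted p = 0.0664), the membrane protein Opalin at 0.23 (adjusted p = 0.0838) and Plekhb1 at 0.18 (adjusted p = 0.19).

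Of the 4 genes of myelin lipid synthesis, 2 were called higher. Ugt8a, which makes galactosylceramide, was 26.5, 26.0, 16.1, 19.0 and 20.5 CPM against 19.2, 16.9, 14.7, 15.5 and 15.1 CPM, a rise of 0.37 (standard error 0.08, adjusted p = 0.0337). Aspa, which frees acetate from N-acetylaspartate for lipid synthesis, was 21.6, 17.4, 24.5, 21.4 and 25.1 CPM against 18.7, 11.4, 15.7, 18.4 and 10.7 CPM, a rise of 0.55 (standard error 0.13, adjusted p = 0.0417). The Aspa pair at 2 m differed most, the non-infarcted library being the lowest of the 11. Fa2h, which hydroxylates the fatty acids of these lipids, stood at 0.17 (adjusted p = 0.244), and Gal3st1, which adds the sulfate of sulfatide, at 0.22 (adjusted p = 0.326), with the 1 m pair reversed.

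Among enzymes and carriers of the mature cell, 2 of 4 were called. Klk6, a secreted serine protease that is abundant in oligodendrocytes (ENSMUSG00000050063.18, chr7:43824499-43832030, plus strand), had the largest difference of all 32. It was 9.16, 7.94, 5.17, 7.44 and 5.13 CPM on the infarcted side and 3.22, 1.70, 1.74, 2.43 and 1.27 CPM on the other, with 2.09 CPM in the naive library. The sides did not overlap, and the difference was 1.38 (standard error 0.11, adjusted p = 0.00199). Trf, the iron carrier transferrin (ENSMUSG00000032554.15, chr9:103204001-103230444, minus strand), was 212, 189.8, 154, 143 and 179 CPM against 142, 100.1, 96.7, 97.1 and 125 CPM, again with no overlap, a rise of 0.65 (standard error 0.07, adjusted p = 0.00447). Trf is also made by the choroid plexus, whose marker Ttr reached 349.7 CPM in the naive library and 195 CPM in the 1 m LEV non-infarcted library against 9.79 to 24.7 CPM in the other 9, and Trf stood at 98.9 and 97.1 CPM in those libraries, and its range over the 11 was 96.7 to 212 CPM. The part of the choroid plexus in the Trf values was not tested. Car2, a carbonic anhydrase that blood cells and astrocytes also hold, was not called at 0.28 (adjusted p = 0.166), and neither was Qdpr, which recycles tetrahydrobiopterin, at 0.13 (adjusted p = 0.245).

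**Figure D2:**
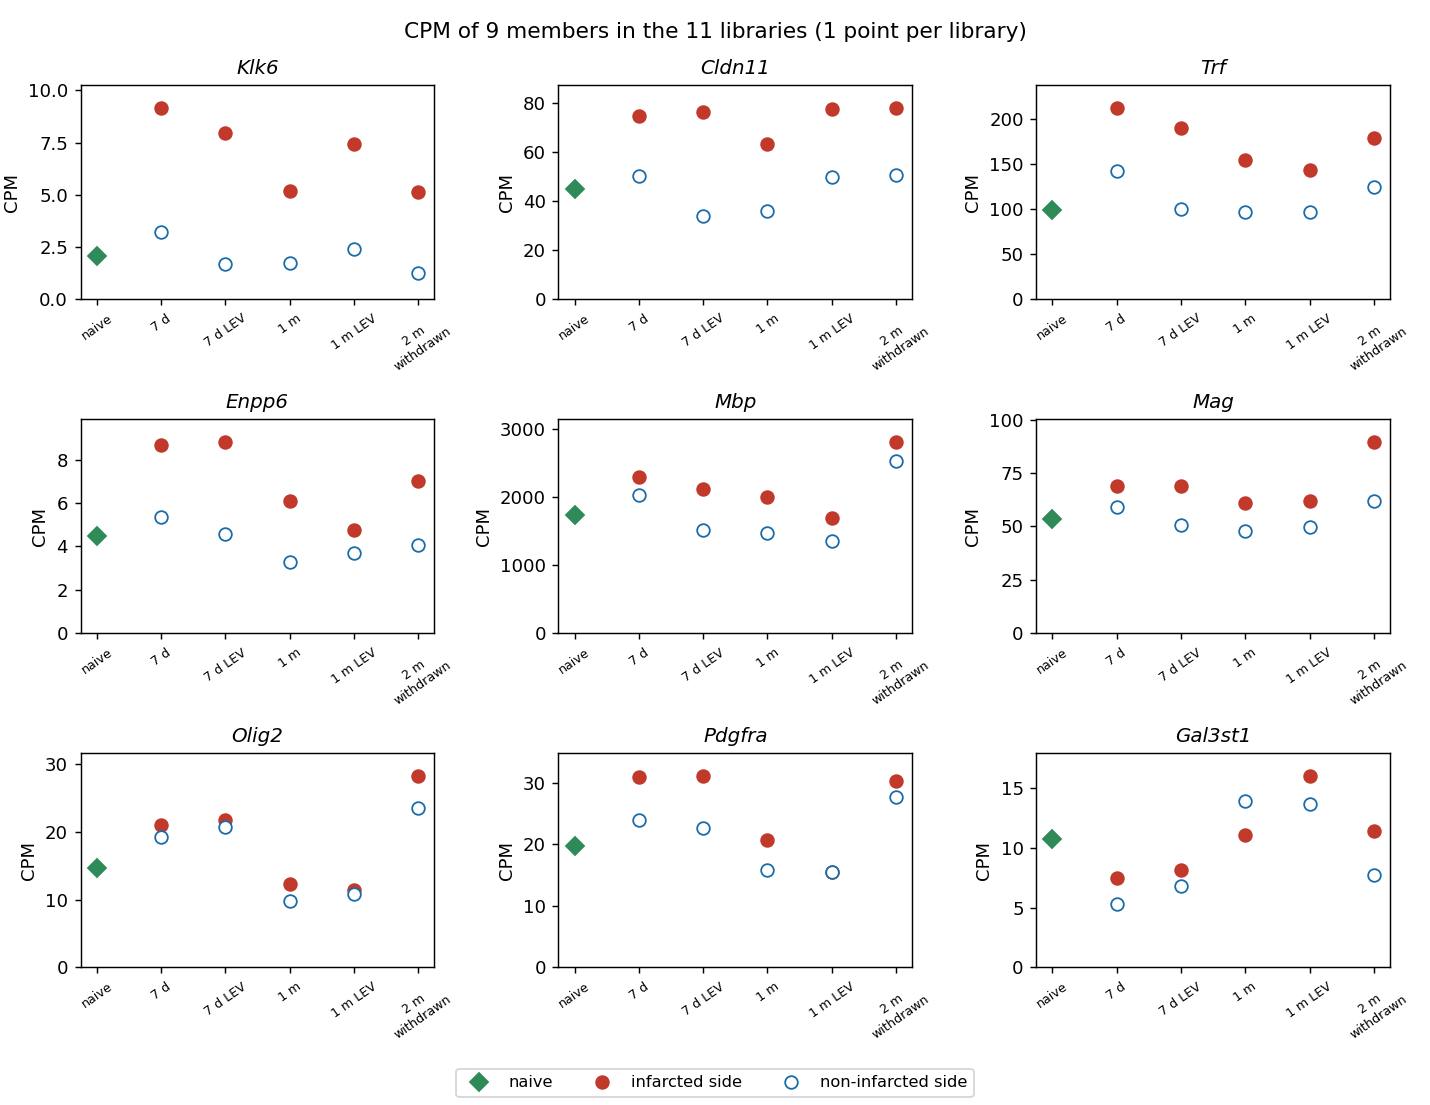
CPM of 9 of the genes in the 11 libraries, 1 point per library. Filled circles are the infarcted side, open circles the non-infarcted side, and the diamond is the naive library. Klk6, Cldn11 and Trf separate by side, whereas Olig2, Pdgfra and Gal3st1 differ more between states.

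Only 5 of the 32 had every infarcted library above every non-infarcted one: Cldn11, Nkx6-2, Tcf7l2, Klk6 and Trf, against 3.23% of all genes tested. The number higher on the infarcted side by state was 28 at 7 d, 32 at 7 d with LEV, 30 at 1 m, 31 at 1 m with LEV and 31 at 2 m. The medians were 0.21, 0.44, 0.36, 0.28 and 0.51 in that order, where all genes had −0.05, 0.02, 0.05, −0.00 and 0.06. The 4 genes that were lower at 7 d were Mal, Fa2h, Car2 and Plekhb1, by at most 0.09. The highest of the 11 values was in an infarcted library for each of the 32, most often in the 2 m library (15 genes), then at 7 d (7 genes) and 7 d LEV (5 genes). The lowest was in a non-infarcted library for 30, most often at 1 m (11 genes). These extremes were counted for the 32 only, so no share over all genes stands beside them.

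Further genes of the lineage were read from lists that do not overlap with the 32. Among 40 other genes of mature oligodendrocytes, 38 were tested, 14 were called higher and 0 lower, and 33 lay above 0, with a median of 0.33. Apod, a lipid carrier, led with 205, 196, 247, 364 and 167 CPM against 117, 106, 131, 202 and 79.0 CPM, a rise of 0.90 (standard error 0.06, adjusted p = 0.000784). Il33, a nuclear alarmin of oligodendrocytes and astrocytes, rose by 0.62 (adjusted p = 0.00418), Tmem88b by 0.49 (adjusted p = 0.00933) and the lysophosphatidic acid receptor Lpar1 by 0.45 (adjusted p = 0.0129). Of 25 other genes of precursors and newly formed cells, 3 were called, with a median of 0.15: the adhesion protein Tns3 at 0.63 (adjusted p = 0.00563), the matrix proteins Matn4 at 0.62 (adjusted p = 0.0218) and Vcan at 0.65 (adjusted p = 0.0327). Kif19a stood at 0.51 (adjusted p = 0.0616).

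Genes that oligodendrocytes express under disease, which other cells make too, were called higher in 7 of 9, with a median of 1.34: complement C4b by 1.56 (adjusted p = 0.00199), the protease inhibitor Serpina3n by 1.65 (adjusted p = 0.00287), and the antigen presentation genes B2m by 1.45 (adjusted p = 0.00447) and H2-K1 by 1.40 (adjusted p = 0.005). Serpina3n and C4b are also genes of reactive astrocytes, and B2m and H2-K1 of microglia. Cholesterol is a main lipid of myelin, and the genes of its synthesis lay below 0 in all 15. Of these 5 were called lower, with a median of −0.24, among them Sqle at −0.38 (adjusted p = 0.0255), Fdft1 at −0.38 (adjusted p = 0.031) and the regulator Insig1 at −0.37 (adjusted p = 0.0262). By state the median of the 15 was −0.59, −0.34, −0.17, −0.18 and −0.02. Neurons and astrocytes express these genes as well.

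Markers of some other cells differed between the sides too. In the striatal, thalamic and choroid plexus lists only Prkcd was called. Microglial genes were called higher in 11 of 12 with a median of 1.78, fibroblast genes in 5 of 10 (1.01), astrocyte genes in 4 of 10 (0.22) and pericyte genes in 3 of 9 (0.32). The summed level of the microglial list was 842 to 3753 CPM on the infarcted side and 417 to 523 CPM on the other. That of the astrocyte list was 2464 to 3389 CPM on the infarcted side and 2078 to 2623 CPM on the other, and that of the pericyte list 154 to 279 CPM on the infarcted side and 141 to 239.6 CPM on the other. In the dividing-cell list (6 tested, median 0.91, with Mki67, Ccnb1 and Ccna2 at 0 in at least 1 library) the smallest adjusted p was that of Ccna2, 0.106. By state the median of all 8 genes listed was 1.83, 2.05, 0.10, 0.14 and −0.03. Between 7 d and 1 m limma called a fall of the side difference for Birc5 (−2.07, adjusted p = 2.48e-07) and Top2a (−2.19, adjusted p = 5.93e-07). In the choroid plexus list (3 tested) the smallest adjusted p was that of Clic6, 0.228. In the cortical neuron list 9 of 10 genes lay below 0, with a median of −0.17, and the smallest adjusted p was 0.0749 for Rbfox3 at −0.24. Its summed level was 5749 to 7665 CPM on the infarcted side against 6420.3 to 8771 CPM. By state its median was −0.40, −0.32, −0.10, −0.12 and 0.31, so the sign turned at 2 m. At 2 m the astrocyte, striatal and Schwann cell medians were 0.60, 0.58 and 0.39, next to 0.51 for the 32. Those of dividing cells and cholesterol synthesis were −0.03 and −0.02. In the striatal list all 9 genes lay above 0, the smallest adjusted p was 0.121 for Drd2 at 0.63, and the list had a median of 0.38 and a summed level of 565.7 to 1059.8 CPM against 607.5 to 766 CPM. The striatum and its white matter lie under the cortex. At 7 d the striatal median was −0.43 and that of the 32 lineage genes was 0.21, with 28 of them higher. In the other 4 states the striatal median was 0.24 to 0.77 and that of the 32 was 0.28 to 0.51. The part of dissection in the side differences was not tested. Of the markers of Schwann cells, which make myelin outside the brain, Pmp2 was at 0 to 0.0726 CPM and Prx at 0 to 0.406 CPM in the 11 libraries, and the smallest adjusted p of the 4 tested was 0.362, for Sox2.

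**Figure D3:**
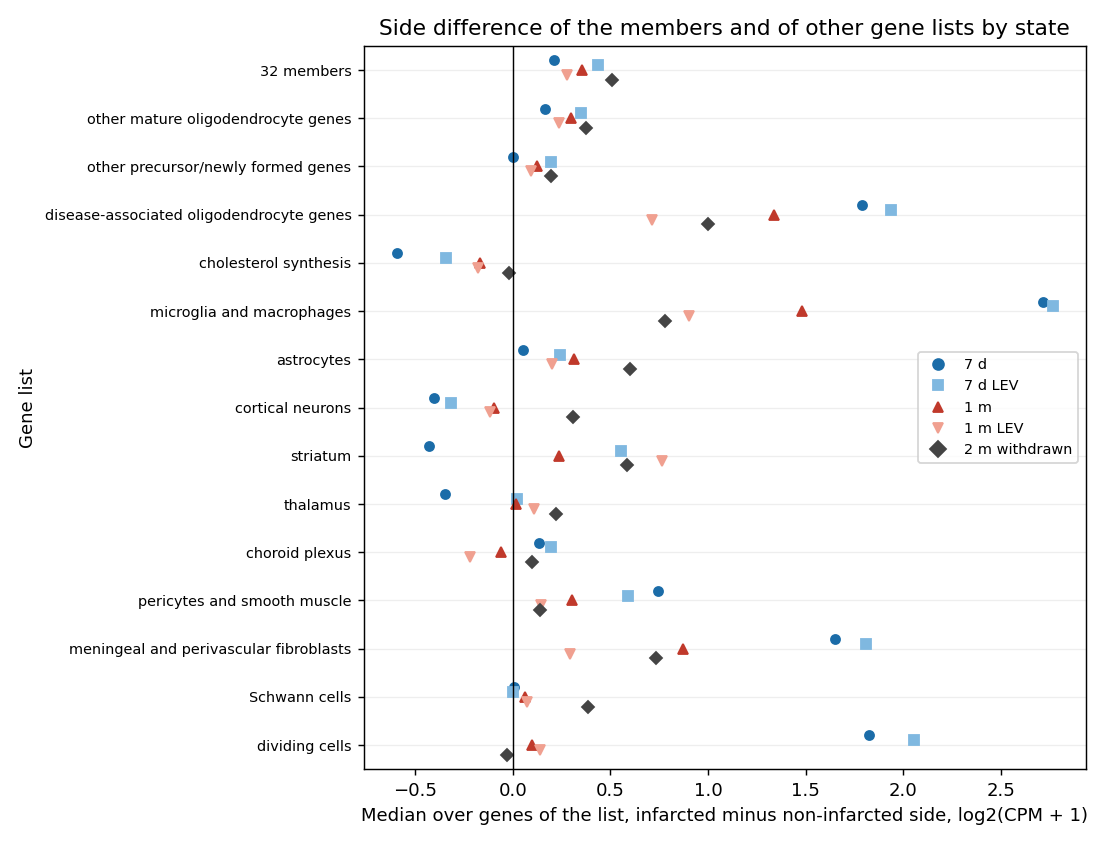
Median side difference of the 32 genes and of 14 other gene lists in each of the 5 states, in log2(CPM + 1), infarcted minus non-infarcted. The medians of the 32 lie between 0.21 and 0.51, whereas the microglial medians run from 0.78 at 2 m to 2.76 at 7 d with LEV. The striatal and cortical neuron medians change sign.

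Against the naive library the infarcted side was higher for most of the lineage, and non-infarcted values lay on both sides of it. Infarcted values exceeded the naive value on average in 29 of 32 genes, with a median of 0.39 against 0.03 for all genes. All 5 infarcted libraries lay above the naive one in 22 of 32, as in 17.7% of all genes. On the non-infarcted side 15 of 32 were above naive, with a median of −0.00. There all 5 libraries were above naive in Ugt8a alone (8.56% of all genes) and all 5 below in Myrf alone (10.5%). The largest differences on the infarcted side were Klk6 at 1.34 (standard error 0.32, adjusted p = 1), Trf at 0.81 (standard error 0.23, adjusted p = 1) and Cldn11 at 0.70 (standard error 0.18, adjusted p = 1), and the lowest was Cspg4 at −0.23. On the non-infarcted side they ran from Cspg4 at −0.64 to Ugt8a at 0.28. With 1 naive library limma called 0 of the 32 on either side, against 0.00611% of all 16367 genes on the infarcted side and 0% of 15983 on the other. With edgeR the median of the 32 was 0.44 on the infarcted side and 0.03 on the other, against 0.04 and 0.02 for all genes. These comparisons share the naive library, so their values are set side by side only.

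Between 7 d and 1 m, Olig2, Pdgfra, Gpr17 and Car2 fell on both sides and Gal3st1 rose on both. On the infarcted side 7 of 32 were called lower and 1 higher, where 11.4% of 16399 genes were called lower and 5.27% higher. On the non-infarcted side 5 were called lower and 2 higher, where 6.45% of 15931 were called lower and 5.98% higher. The medians of the 32 were −0.24 and −0.17, against −0.04 and −0.06 for all genes. Leaving out 1 library moved them over −0.23 to −0.18 and over −0.33 to −0.05, the last without the non-infarcted 7 d library, where all genes also had a median of −0.05. Both 1 m libraries lay below both 7 d libraries in 17 of 32 on the infarcted side (32.8% of all genes) and in 15 on the other (35.2%). These tests use 4 libraries with drug as the second factor and have 1 residual degree of freedom. Over the same interval fibroblast genes were called lower in 7 of 10 on the infarcted side and in 1 of 10 on the other, microglial genes in 11 and 1 of 12, and striatal genes were called higher in 8 and 1 of 9. Their part in the values of the 32 was not tested.

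Olig2 fell on both sides, with log2 changes of −0.80 (standard error 0.18, adjusted p = 0.000735) on the infarcted and −0.89 (standard error 0.15, adjusted p = 0.00212) on the other, and its 4 values at 1 m were 9.80 to 12.4 CPM against 19.2 to 21.8 CPM at 7 d. Pdgfra changed by −0.76 (standard error 0.17, adjusted p = 0.000645) and −0.54 (standard error 0.15, adjusted p = 0.0294). Gpr17 changed by −0.64 (adjusted p = 0.0253) and −0.64 (adjusted p = 0.0379), and Car2 by −0.44 (adjusted p = 0.0203) and −0.62 (adjusted p = 0.0144). Called lower on the infarcted side, with the other side's value next to it, were Enpp6 at −0.61 (adjusted p = 0.0316) and −0.41 (adjusted p = 0.19), Ugt8a at −0.56 (adjusted p = 0.0143) and −0.24 (adjusted p = 0.341), and Trf at −0.43 (adjusted p = 0.021) and −0.29 (adjusted p = 0.228). Gjb1 was called lower on the non-infarcted side at −0.61 (adjusted p = 0.0236), with −0.39 (adjusted p = 0.119) on the infarcted.

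Gal3st1 went the other way on both sides. It was 7.47, 8.17, 11.1, 16.0 and 11.5 CPM on the infarcted side and 5.28, 6.86, 13.9, 13.7 and 7.77 CPM on the other, and rose by 0.71 (standard error 0.19, adjusted p = 0.00694) and 1.08 (standard error 0.17, adjusted p = 0.00126). Sox10 rose on the non-infarcted side, by 0.47 (adjusted p = 0.0499), with 0.37 (adjusted p = 0.0928) on the infarcted. None of the 12 membrane and junction genes was called on the infarcted side, and Gjb1 was the 1 called on the other. The test of whether the change differed between the sides called 0 of the 32, where 5.47% of 16228 genes were called (0.24% higher and 5.23% lower). At an unadjusted p below 0.05 it held 1 of the 32, where 2589 of all 16228 genes did: Cspg4 at −0.51 (95% interval −0.99 to −0.02). For the same difference edgeR called 0 of the 32 and 594 of all 16228 genes. In the other lists Vcan fell on the infarcted side, at −1.14 (adjusted p = 5.51e-06), and its change differed between the sides by −0.81 (adjusted p = 0.0141). No other gene of its list was called for that difference. Of the fibroblast list, Col3a1 and Col1a1 were called there at −3.75 and −2.69, and the part of fibroblasts in the Vcan values was not tested. Abca2, a lipid transporter, rose by 0.76 (adjusted p = 4.27e-05) and 0.89 (adjusted p = 0.00132), and Adamts4, a protease of mature oligodendrocytes, fell at −0.79 (adjusted p = 0.00128) and −0.52 (adjusted p = 0.0479).

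**Figure D4:**
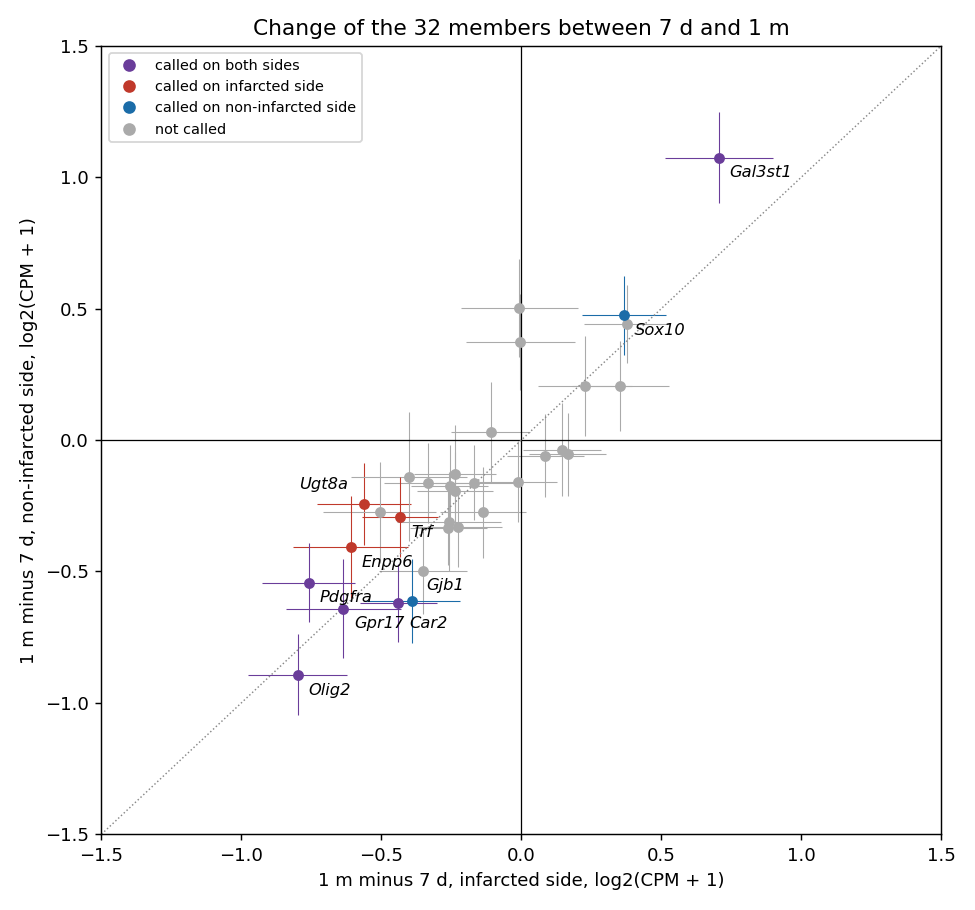
Change between 7 d and 1 m of the 32 genes on the infarcted side (x) and the non-infarcted side (y), in log2(CPM + 1), with bars of 1 standard error. Coloured points were called, and the dotted line marks equal change. Olig2, Pdgfra, Gpr17 and Car2 lie below 0 on both axes and Gal3st1 above 0 on both.

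Time runs together with a split of the libraries that the labels do not name. In Olig2, Pdgfra and Car2 the naive library and the 4 libraries of 1 m all lay below the 4 of 7 d and the 2 of 2 m, as in 7.05% of all genes, and in 0 of the 32 they all lay above (3.87%). For Olig2 the naive value was 14.6 CPM and the 2 m values were 28.3 and 23.6 CPM. Stxbp3, a gene outside the lineage chosen after its values were seen, was 17.9 to 22.3 CPM in the first 5 libraries and 2.82 to 6.73 CPM in the other 6. Change with time and this split cannot be told apart in the tests above. Fits without 1 library leave 1 library at 1 of the times, so only their medians are given. They had no second factor. Without the 7 d, 7 d LEV, 1 m and 1 m LEV library, the infarcted median of the 32 was −0.18, −0.21, −0.22 and −0.23. All genes had −0.07, −0.01, −0.06 and −0.03. The non-infarcted medians were −0.05, −0.33, −0.10 and −0.25, and all genes had −0.05, −0.08, −0.05 and −0.08. With all 4 libraries, TMM scaling called 5 of the 32 on the infarcted side (2369 of all 16399 genes), against 8 without it (2732). On the other side it called 4 (1300 of all 15931), against 7 (1979).

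No difference with levetiracetam passed the test in any of the 32. LEV against no LEV was compared over 7 d and 1 m, and limma called 0 of 32 on the infarcted side (0.518% of 16399 genes), 0 on the non-infarcted side (0.00628% of 15931) and 0 for the difference between them (0.173% of 16228, with 0.0986% higher and 0.0739% lower). Each of the 3 held 1 of the 32 at an unadjusted p below 0.05, where all genes held 1370, 798 and 539 in that order. In each, edgeR called 0 of the 32, where it called 17, 9 and 7 of all genes. The medians of the 32 were −0.04, −0.07 and 0.08. Leaving out 1 library, or 1 state for the difference, moved them over −0.17 to 0.08, −0.31 to 0.11 and −0.06 to 0.15, so the sign of none of the 3 was stable. On the infarcted side the values ran from Cspg4 at −0.29 to Tspan2 at 0.39 (adjusted p = 0.339), with a 95% interval for Tspan2 of 0.10 to 0.68. Tspan2 was 58.2, 66.0, 42.4, 64.8 and 63.8 CPM on the infarcted side, and the 2 LEV libraries exceeded the untreated ones at both times. On the non-infarcted side they ran from Cspg4 at −0.40 to Olig1 at 0.25, and for the difference from Myrf at −0.32 to Tspan2 at 0.40 (adjusted p = 1).

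After withdrawal of LEV the comparison is between single libraries, 2 m against 1 m with LEV, and has no test. Time, withdrawal and the split of libraries described above cannot be told apart in it. On the infarcted side 7 of 32 were at least 1.5-fold higher and 0 lower, where 15.1% and 6.42% of all genes passed those bounds. On the non-infarcted side 7 were higher and 6 lower, where 12.9% and 10.5% did. Median ratios were 1.21 and 1.09, against 1.10 and 1.04 for all genes. Olig2 had the largest ratio on both sides, 2.47 (95% interval 2.10 to 2.91) and 2.18 (95% interval 1.84 to 2.58), where exact intervals on tags cover counting error only. Pdgfra was 1.95 (95% interval 1.69 to 2.26) and 1.78 (95% interval 1.54 to 2.06). Mbp was 1.65 (95% interval 1.63 to 1.68) and 1.87 (95% interval 1.84 to 1.90). Gjb1 was also past 1.5 on both sides, Car2, Opalin and Ermn on the infarcted side, and Mobp, Nkx2-2 and Plekhb1 on the other.

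All 6 ratios past 1.5-fold lower were on the non-infarcted side. Tcf7l2 was 0.272 (95% interval 0.213 to 0.345) there against 0.80 (95% interval 0.698 to 0.917) on the infarcted side. Olig1 was 0.617 (95% interval 0.564 to 0.675) against 1.15 (95% interval 1.08 to 1.24). Aspa was 0.580 (95% interval 0.482 to 0.695), Gal3st1 0.569 (95% interval 0.458 to 0.703), Klk6 0.525 (95% interval 0.300 to 0.888) and Nkx6-2 0.607 (95% interval 0.449 to 0.813). The 6 ratios share the 2 m non-infarcted library, which held the lowest of the 11 values for Tcf7l2, Olig1, Aspa, Klk6 and Nkx6-2. For Gal3st1 its value lay above both non-infarcted values of 7 d and below both of 1 m. Of the tags of this library 92.3% fell in genes of the table, against 94.2 to 97.3% in the other libraries. The part of this in the ratios was not tested.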

How the data were processed

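CAGE libraries of mouse cortex were used, 1 for each of 11 groups taken from the labels. The labels place LEV at 7 d and give a withdrawal of 2 weeks, whereas the study's design text gives a start at 1 month and a withdrawal of 1 week, and the labels were followed. The deposited values are CPM per gene, computed by the authors. Per the submitters' processing notes the build was GRCm38, and the tools named there, without their role, were HISAT2 2.0.5, BWA 0.7.17 and DESeq2 1.20.0. Whole tag numbers were recovered from the CPM and library totals for 100% of values, within 0.01 of a tag. Gene positions come from GENCODE M21 and windows around starts from RefSeq.

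Genes with a mean of at least 1 CPM in the libraries compared were tested on log2(CPM + 1) with limma 3.58.1 (mean-variance trend) in R 4.3.3, adjusted by Benjamini-Hochberg over all of them. State was a factor in the side test, none was used against naive (each with 4 residual degrees of freedom), and time and LEV were each tested with the other as second factor (1). Alternatives were a pseudocount of 0.25, no expression limit, a mean of at least 5 CPM, median centring, TMM factors, edgeR 4.0.16 on recovered tags, no second factor and leaving out each library. Scripts used Python 3.11.15, pandas 2.3.3, numpy 2.4.6, scipy 1.17.1 and matplotlib 3.10.9, and the tests were checked on simulated data.

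The 32 genes and all gene lists were chosen with earlier results of these data known. All 32 were named for the side. Elsewhere called genes, at most 8 per direction, and otherwise the extremes were named, and from each other list at most 4 genes by smallest p. One gene that this rule would name is not reported here.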

Additional observations from a re-analysis of the deposited data

Results flagged for a closer look

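Over the 5 states, 3 of the 32 genes had 1 side difference far from the other 4 by Dixon's test (critical value 0.71 for 5 values, at which chance marks about 1 in 20 genes). Tcf7l2 was highest at 2 m, 1.84 (log2) against 0.45 to 0.74 in the other states. Olig1 was also highest at 2 m, 1.07 against 0.15 to 0.27. Mog was lowest at 7 d, 0.166 against 0.42 to 0.52. In the 2 m pairs of Tcf7l2 and Olig1 the non-infarcted library held the lowest of the 11 values, 5.16 and 44.0 CPM.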

How the results depend on the processing

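The side fit pairs the libraries of both sides by state, and without that pairing 3 of the 32 genes were called higher, against 18. Over all 16229 genes, 245 were then called, against 1136. Without an expression limit 11 of the 32 were called (882 of all 22272). Leaving out each state in turn gave 3 to 15 (71 to 1288 of all genes). The remaining side alternatives gave 15 to 19, all higher (732 to 1281 of all genes, in either direction). The median of the 32 stayed between 0.31 and 0.39. Over all genes, median centring gave 878 higher and 393 lower calls and TMM 800 and 269, against 1008 and 128. The 12 side alternatives reversed none of the 32.

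For time on the infarcted side, TMM factors gave 5 called genes and leaving out the second factor 4, against 8. Over all genes these settings gave 2369 and 1547, against 2732. On the non-infarcted side TMM gave 4, against 7, where all genes gave 1300, against 1979. Median centring turned the 1 higher and 7 lower of the infarcted side into 3 and 4, and the 2 and 5 of the other side into 3 and 4, and TMM gave 2 and 2 there. Over all genes, median centring turned 864 higher and 1868 lower into 1230 and 1418 on the infarcted side. On the other side it turned 952 and 1027 into 1175 and 749, and TMM gave 930 and 370. In the naive, LEV and side-difference tests 0 of the 32 were called under each alternative that was run. Tests on 4 libraries have 1 residual degree of freedom, so their p-values rest mostly on the spread of other genes.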
